A study of Mus musculus with 23 samples.

Results

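The genes described here are 10 hepatic carboxylesterases of the mouse, Ces1b, Ces1c, Ces1d, Ces1e, Ces1f, Ces1g, Ces2a, Ces2c, Ces2e and Ces3a. They were taken by gene symbol from the tables deposited for male and for female livers, and they are 10 of the 22852 gene identifiers present in both tables. All 10 passed the filter on low counts in every comparison. The choice of these genes used their change between knockout and control livers, Ces1g being named for its shift, so every knockout-against-control value of a member below is a description and carries no test. Differences between the sexes were not used in that choice and were tested. They draw on the same libraries, so the sex tests of the members, those of Ces1g above all, are not fully independent of that choice.

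Carboxylesterases are serine hydrolases that cleave ester, thioester and amide bonds. In the liver most of them sit in the lumen of the endoplasmic reticulum of hepatocytes, where they hydrolyse drugs, pesticides and other foreign esters and also endogenous lipids such as triacylglycerol. Rodent genomes hold many more of these genes than the human genome, arranged as tandem copies. Cpt1a, the gene deleted in this study, encodes the liver enzyme that joins long-chain fatty acids to carnitine so that they can enter mitochondria for oxidation.

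Bulk liver RNA from 23 mice was compared. Every mouse had the genotype label B100, had eaten a diet labelled WD over 16 weeks, and was necropsied without a fast. The groups were 5 B100-Control males (replicates 1, 2, 3, 4 and 6), 6 B100-LKO males, 6 B100-Control females and 6 B100-LKO females, where LKO is the liver ablation of Cpt1a. The driver of the deletion, the age of the mice and their litters are not given in the sources used here. Each sex was deposited as a table of its own, so sex and table cannot be told apart.

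In the mm39 coordinates of the tables the genes lie on chromosome 8 in blocks of neighbouring copies. Ces1b to Ces1g lie on the minus strand, from Ces1b at chr8:93783356-93806645 to Ces1g at chr8:94028997-94063936, inside a block of 7 Ces1 genes that spans 317 kb. Ces2a (chr8:105460635-105468266), Ces2c (chr8:105573700-105581115), Ces2e (chr8:105652892-105661304) and Ces3a (chr8:105775233-105785045) lie on the plus strand in a block of 11 genes that spans 416 kb. The blocks are 11.4 Mb apart. All 10 members are annotated as protein coding.

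The upstream sequences of the genes on which the results turn are shown because they differ in how much they share between neighbouring copies. RefSeq entries on GRCm38.p6 were matched for 7 of the 10 members, and those of Ces1d, Ces1f and Ces3a were not matched. Each run below is the 250 bases before the annotated start, 5′ to 3′ on the strand of the gene, and Ces1b, with 2 listed starts, is shown at the upstream one. For Ces1b (chr8:93080018-93080267, minus strand) and Ces1c (chr8:93131284-93131533, minus strand), capitals mark runs of 12 or more letters that the pair share.
Ces1b: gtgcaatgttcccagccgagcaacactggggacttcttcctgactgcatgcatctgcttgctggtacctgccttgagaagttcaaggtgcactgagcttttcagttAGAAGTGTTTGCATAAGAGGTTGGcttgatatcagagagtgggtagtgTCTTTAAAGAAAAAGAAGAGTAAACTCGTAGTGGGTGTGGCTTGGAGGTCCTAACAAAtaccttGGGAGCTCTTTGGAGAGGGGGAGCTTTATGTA
Ces1c: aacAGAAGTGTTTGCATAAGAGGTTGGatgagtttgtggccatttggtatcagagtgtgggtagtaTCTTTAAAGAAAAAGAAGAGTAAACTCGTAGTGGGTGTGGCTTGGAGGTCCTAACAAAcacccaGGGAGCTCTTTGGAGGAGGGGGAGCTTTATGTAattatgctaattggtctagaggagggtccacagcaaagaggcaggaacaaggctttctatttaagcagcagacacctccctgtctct
Over 144 aligned bases these windows were 95.1% identical, and the longest shared run was 58 bases. In Ces1b the shared stretch runs to the edge of the window, at the upstream one of its 2 listed starts, and in Ces1c it lies further upstream. Bases beyond the windows were not compared, so where the similarity ends is not shown.

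For Ces1g (chr8:93337210-93337459, minus strand), Ces2a (chr8:104733753-104734002, plus strand), Ces2c (chr8:104846818-104847067, plus strand) and Ces2e (chr8:104926010-104926259, plus strand), capitals mark matches to 5 short motifs searched on both strands.
Ces1g: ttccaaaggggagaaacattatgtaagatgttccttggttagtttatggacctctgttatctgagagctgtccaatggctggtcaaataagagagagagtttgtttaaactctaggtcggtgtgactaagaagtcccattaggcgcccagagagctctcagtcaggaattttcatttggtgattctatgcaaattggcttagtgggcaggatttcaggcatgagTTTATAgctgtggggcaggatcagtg
Ces2a: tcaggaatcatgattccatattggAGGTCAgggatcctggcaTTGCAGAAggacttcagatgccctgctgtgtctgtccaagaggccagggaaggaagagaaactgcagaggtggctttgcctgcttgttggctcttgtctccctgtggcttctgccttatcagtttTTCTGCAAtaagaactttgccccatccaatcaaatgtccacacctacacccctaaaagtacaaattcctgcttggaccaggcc
Ces2c: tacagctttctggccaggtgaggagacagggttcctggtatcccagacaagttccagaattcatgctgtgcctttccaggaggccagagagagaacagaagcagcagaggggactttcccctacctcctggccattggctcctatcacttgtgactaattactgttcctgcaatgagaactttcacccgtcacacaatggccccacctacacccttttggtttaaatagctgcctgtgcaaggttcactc
Ces2e: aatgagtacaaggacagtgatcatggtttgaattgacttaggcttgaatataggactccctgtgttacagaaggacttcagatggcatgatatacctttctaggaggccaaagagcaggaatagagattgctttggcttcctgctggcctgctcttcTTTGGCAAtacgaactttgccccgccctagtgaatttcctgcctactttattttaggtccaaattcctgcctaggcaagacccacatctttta
The motifs were AGGTCA (a nuclear receptor element, present in 14% of 32544 upstream windows of the same length), TTCNNNGAA (a STAT5-type palindrome, 7.04%), TTGCNNAA (a C/EBP-type element, 9.58%), TATAAA (12.3%) and GTTAAT (an HNF1-type element, 6.47%). The only capitals in Ces1g are a TATAAA match on the opposite strand at position -26 from the start. Ces2a held AGGTCA at -226 and TTGCNNAA at -208 and, on the opposite strand, at -83, and Ces2e held TTGCNNAA at -93 on the opposite strand. Ces1b and Ces1c each held TTGCNNAA, at -136 and -239, while the Ces2c window held none of the 5 motifs. These are matches of letters and nothing about binding was measured.

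The coding sequences also separate the copies unevenly, which matters for assigning reads. Ces1b and Ces1c were 90.85% identical over their aligned coding bases, with a longest shared run of 118 bases. Within the Ces2 members identity was 82.62% to 83.72%, Ces1d and Ces1g shared 81.53%, and the least alike members were Ces1g and Ces3a at 58.79%. How reads that match several copies were counted is not given in the sources used here, so the split of reads between Ces1b and Ces1c is uncertain.

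Libraries held 14224665 to 19626662 counted reads. Cpt1a was at 356 ± 51.1 CPM (counts scaled to library size; SD, n = 5) in control males and 63.2 ± 20.5 (n = 6) in LKO males, a log2(CPM + 1) difference of -2.52 (exact permutation test, two-sided, p = 0.00433, the smallest this design allows). In females it was at 387 ± 57.7 in controls and 75.6 ± 8.71 in LKO (n = 6 each), with an exact permutation p of 0.00216, also the smallest possible. All 10 hepatocyte markers were present, with summed levels of 62189 to 92779 CPM in control males, 58387 to 85309 in LKO males, 90320 to 111360 in control females and 66597 to 98977 in LKO females. Of the other marker lists, the 10 macrophage markers summed to 518 to 1361 CPM over all livers, the 10 stellate cell and fibroblast markers to 230 to 585, and the 5 kidney markers were in neither table. In bulk liver, fewer hepatocytes and less RNA per hepatocyte cannot be told apart. Some livers were at the edge of their group for many members. LKO female 6 was the lowest of its group for 8 of the 10 members, control male 3 and LKO male 3 were the lowest for 6 each, and control male 2 was the highest for 6. Control male 4 was the highest of its group for Ces1c, Ces2a and Ces3a and the lowest for Ces1d and Ces2e.

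Which of these genes dominated depended on sex. Per length, in CPM per kilobase of the gene model (CPM per kb), Ces3a led in control males at 645 ± 200 (SD, n = 5), followed by Ces1c at 535 ± 158. The ranges of the pair overlapped between livers, but within each control male Ces3a was the higher. In control females Ces1c led at 1231 ± 156 (n = 6), with no value below 1052, and Ces3a (324 ± 91.5) and Ces1d (324 ± 91.6) followed, with overlapping ranges. Ces3a, for which ES-male is an older name, and Ces1c, an esterase secreted into plasma, thus changed places between the sexes. Averaged over all 23 livers, Ces1c ranked 64th and Ces3a 106th among 22852 genes per length.

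The middle of the order held Ces1f, Ces2e, Ces2a, Ces1e and Ces1g in every group. In control males their means ran from 109 ± 6.39 CPM per kb for Ces1f to 48.7 ± 6.22 for Ces1g, and in control females from 107 ± 13 for Ces1f to 67.5 ± 13.1 for Ces1e. Neighbours in that stretch overlapped in range in both control groups, except that Ces1f in control males (102 to 119) stood above the highest Ces2e value (99.7). Ces1b and Ces2c were the lowest pair in every group, at 12.4 ± 2.89 and 10.8 ± 1.79 CPM per kb in control males. The summed level of the 10 genes was 1753 ± 368 CPM per kb in control males, 1875 ± 250 in LKO males, 2359 ± 194 in control females and 2240 ± 317 in LKO females, and the ranges of all 4 groups overlapped.

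As shares of that sum, Ces1c made up 30.1% ± 3.24 in control males and 26.3% ± 3.66 in LKO males, against 52.3% ± 5.44 in control females and 48.9% ± 3.42 in LKO females. The highest male share was 33.4% and the lowest female share 42.3%. Ces3a went the other way, with 36.3% ± 3.27 and 37.5% ± 3.32 in control and LKO males and 13.6% ± 3.26 and 16.1% ± 3.10 in control and LKO females. Ces1d made up 9.64% in control males and 16.7% in LKO females, the lowest and highest of its group means.

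**Figure D1:**
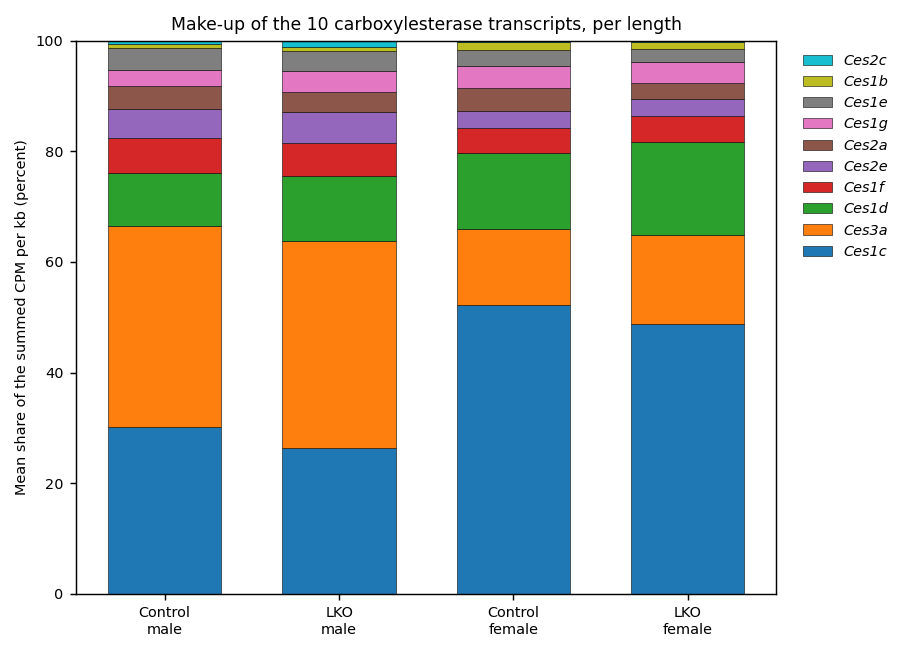
Stacked bars give the mean share of each gene in the summed CPM per kb of the 10 carboxylesterases (percent, vertical axis) in each group of livers (horizontal axis). Ces3a was the largest segment in both male groups (36.3% and 37.5%) and Ces1c in both female groups (52.3% and 48.9%).

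**Figure D2:**
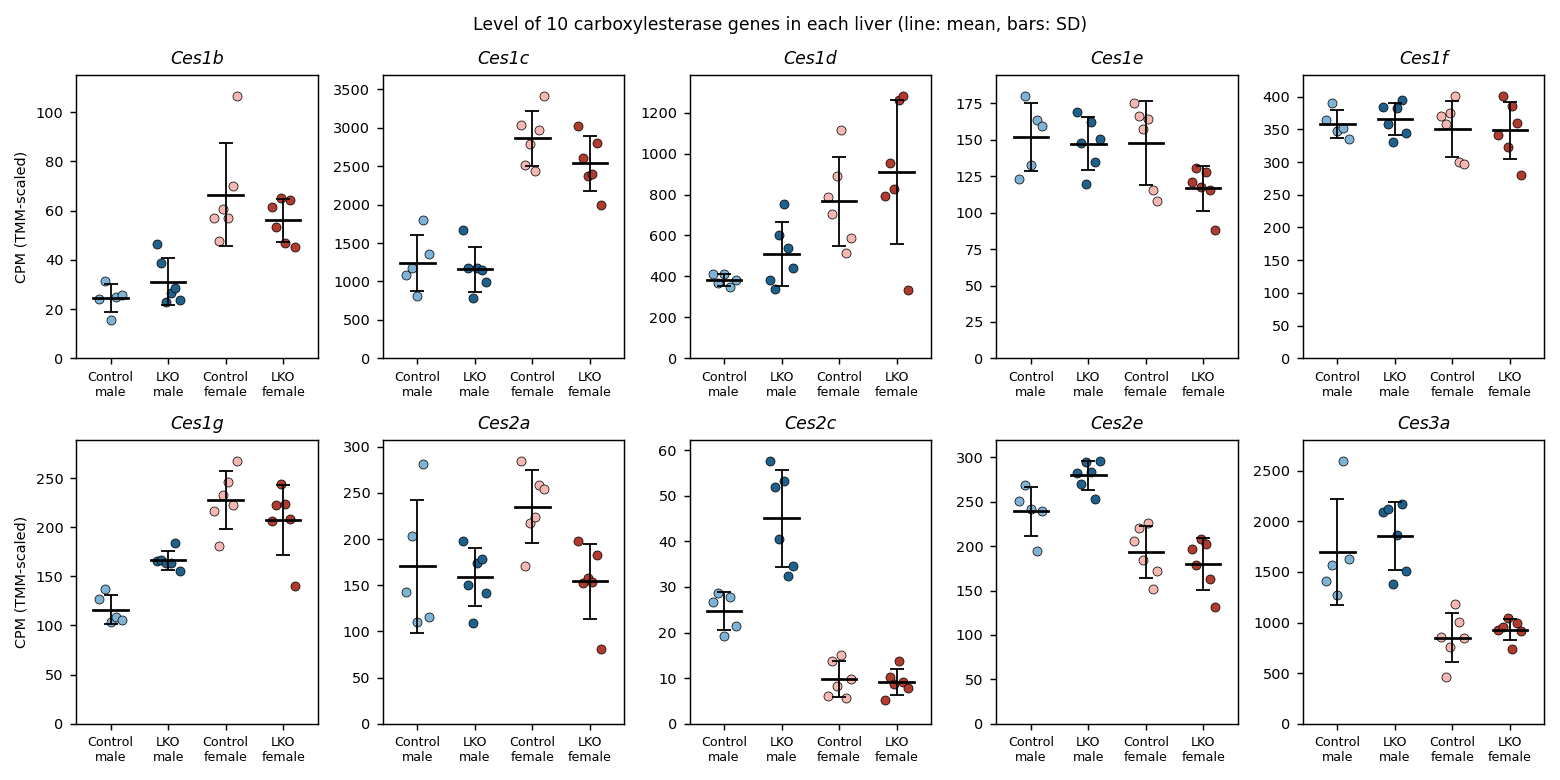
Each panel plots one gene in CPM scaled by TMM factors (vertical axis, from 0) for the 4 groups, with a point per liver, a line at the mean and bars for the SD. Ces1g and Ces2c in LKO males lay above every control male, and Ces1b, Ces1c and Ces1g in control females lay above every control male.

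Female and male controls differed at 6 of the 10 genes. In edgeR's quasi-likelihood test 4 were higher in females (Ces1b, Ces1c, Ces1d and Ces1g) and 2 were lower (Ces2c and Ces3a) at an adjusted p under 0.05. Of all 13699 genes tested 18% were called, 8.8% higher and 9.2% lower. Of these members the 4 higher genes all lie in the Ces1 block, and the 2 lower ones in the other block. That split did not hold throughout. In the other block Ces2g, which is not a member, was called higher in control females, and Ces2a had a higher value without being called. In LKO livers DESeq2 called Ces1e, of the Ces1 block, lower in females. Among the members the median log2 difference, female minus male, was 0.21, and over all genes tested it was 0.00. The groups of the same 6 genes did not overlap, against 10.3% of all genes.

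Ces1c was at 1081, 1173, 806, 1795 and 1352 CPM in control males 1, 2, 3, 4 and 6, and at a lowest of 2443, a median of 2876 and a highest of 3418 in control females. Every female liver was above every male liver. The log2 difference was 1.20 (SE 0.18, adjusted p = 0.000716). Ces1b, the near copy, was at 24.1, 31.3, 15.6, 25.0 and 25.9 CPM in the same males and at 47.7 to 106.7 (median 58.9) in control females, again with no overlap, and its log2 difference was 1.44 (SE 0.21, adjusted p = 0.000688). The split of reads between this pair is uncertain, and its part in the Ces1b difference was not tested.

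Ces1d, also known as triacylglycerol hydrolase, takes part in releasing stored triacylglycerol for lipoprotein assembly. Its 5 control males lay close together at 412, 370, 410, 346 and 381 CPM, while control females spread from 516 to 1116 (median 748). The log2 difference was 1.0 (SE 0.17, adjusted p = 0.00215). Ces1g, an enzyme linked in knockout mice to liver fat and plasma lipids, was at 127, 137, 104, 108 and 105 CPM in control males and at 181 to 268 (median 228) in control females. All females lay above all males, with a log2 difference of 0.97 (SE 0.11, adjusted p = 0.000128). These control livers also entered the shift for which Ces1g was named.

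Ces3a was at 1411, 1565, 1271, 2599 and 1625 CPM in control males and at 464 to 1180 (median 853) in control females. Control male 4 was far above the others, yet the lowest male was still above the highest female. The log2 difference was -1.0 (SE 0.22, adjusted p = 0.0089), and -0.79 without control male 4, still called. Ces2c, for which an older protein name is acylcarnitine hydrolase, was at 26.7, 28.6, 19.3, 27.7 and 21.4 CPM in control males and at 5.52 to 15.1 (median 9.05) in control females, from 82 to 238 deposited counts a female library. No female reached the lowest male, and the log2 difference was -1.34 (SE 0.24, adjusted p = 0.00242).

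The other 4 genes were not called between control females and males. Ces1e, a resident esterase of the endoplasmic reticulum, differed by -0.04 (SE 0.14) and Ces1f by -0.03 (SE 0.10), both with values that overlapped widely. Ces2e differed by -0.31 (SE 0.12, adjusted p = 0.0831), with 3 of 6 females below every male. Ces2a, an enzyme that hydrolyses diacylglycerol and triacylglycerol, differed by 0.46 (SE 0.22, adjusted p = 0.173). Without control male 4, whose Ces2a level of 281 CPM was the highest male value, the Ces2a difference was 0.71 and passed at an adjusted p of 0.014. Ces2e, lowest in the same liver, then also passed at -0.37 (adjusted p = 0.0318). Without that liver 8 of 10 members and 2947 of all 13907 genes tested were called. With it 6 members and 2466 of 13699 genes were called.

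**Figure D3:**
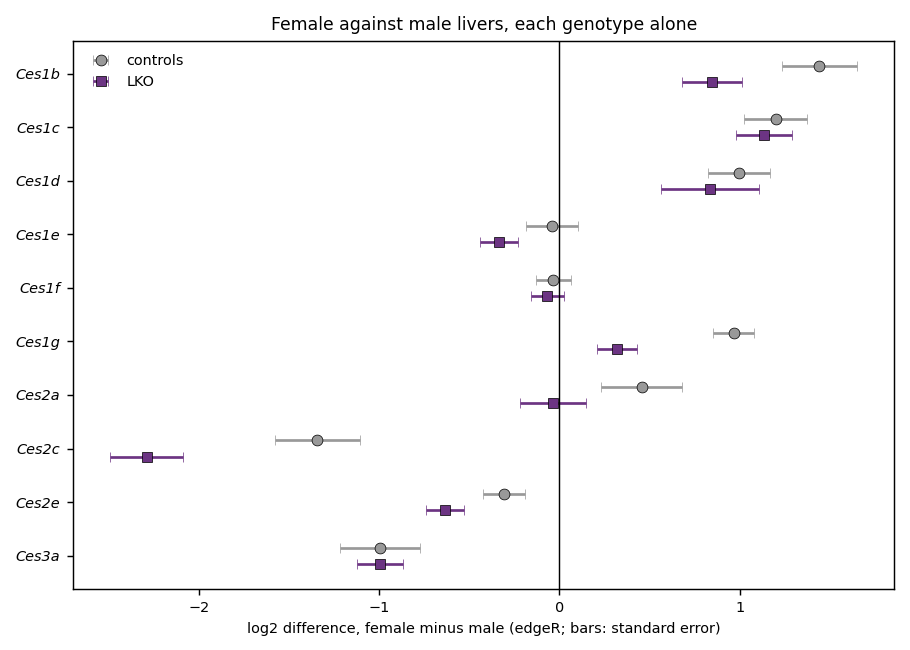
Points give the log2 difference, female minus male (horizontal axis), for each gene (vertical axis) in controls (grey circles) and in LKO livers (purple squares), with bars for the edgeR standard error. Ces1b and Ces1c lie to the right of 0 and Ces2c and Ces3a to the left in both genotypes, while Ces1g lies at 0.97 in controls and 0.32 in LKO.

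The LKO livers, which share no library with the controls, gave the sex comparison a separate set of animals. Of the 10 genes 5 were called, where 12.4% of 13778 genes were: Ces1b and Ces1c were higher in females (5.89% of all genes were), and Ces2c, Ces2e and Ces3a lower (6.51%). The median log2 difference of the members was -0.05, against 0.01 over all genes tested. DESeq2 called 8 of the 10, adding Ces1d, Ces1e and Ces1g, where it called 12.5% of 17016 genes. The groups of 4 members did not overlap (Ces1c, Ces2c, Ces2e and Ces3a), against 6.18% of all genes.

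Ces1c ranged from 780 to 1667 CPM (median 1160) in LKO males and from 1995 to 3029 (median 2503) in LKO females, a log2 difference of 1.13 (SE 0.16, adjusted p = 0.000214). Ces3a ranged from 1383 to 2171 (median 1978) in LKO males and from 742 to 1047 (median 940) in LKO females, with a difference of -1.0 (SE 0.13, adjusted p = 0.000105). Both sets of values were apart, and both differences were within 1 SE of those in controls. Ces1b differed by 0.85 (SE 0.17, adjusted p = 0.00403), with 5 of 6 females above every male.

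Ces2c had the largest sex difference among the members in LKO livers. It ranged from 32.4 to 57.7 CPM (median 46.1) in LKO males and from 5.18 to 13.7 (median 8.93) in LKO females, a log2 difference of -2.29 (SE 0.20, adjusted p = 2.59e-06). The same LKO males gave the Ces2c difference of 0.86 from control males, in the contrast used for the choice. Ces2e, also called pyrethroid hydrolase, ranged from 253 to 296 (median 283) in LKO males and from 131 to 208 (median 188) in LKO females, a difference of -0.64 (SE 0.10, adjusted p = 0.000967).

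Ces1g did not pass between the sexes in LKO livers, at 0.32 (SE 0.11, adjusted p = 0.0733). Its 6 LKO males, which also entered the shift for which Ces1g was named, lay between 155 and 184 CPM. Its LKO females lay between 140 and 244, with 5 of 6 females above every male and LKO female 6 below them all. Without LKO female 6 the difference was 0.41 and passed (adjusted p = 0.00207), and Ces1d, at 0.84 (SE 0.27, adjusted p = 0.057) with all livers, was at 1.01 (adjusted p = 0.00394). Ces1e missed at -0.34 (SE 0.11, adjusted p = 0.0503). Ces1f (-0.07, SE 0.09) and Ces2a (-0.04, SE 0.18, or 0.10 without LKO female 6) were not called in any of the alternatives run for this comparison.

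Other measures moved with sex as well. Of the hepatocyte markers 3 of 10 were called higher in control females, and only 2 control males reached the lowest summed level of the control females. In LKO livers none of the 10 was called in edgeR, with 4 at an unadjusted p under 0.05 and 3 called in DESeq2, 2 higher and 1 lower in females. All 10 macrophage markers had higher values in females in each genotype, 3 of them called in controls and 4 in LKO. Of the 10 stellate cell and fibroblast markers 8 had lower values in control females (median log2 difference -0.49), 2 of them called, Col1a1 and Lum, with 6 at an unadjusted p under 0.05 and 3 called in DESeq2. In LKO livers 6 of these 10 had lower values and none was called in edgeR (1 at an unadjusted p under 0.05) or in DESeq2. Of 9 cholangiocyte markers tested, Spp1 was called lower in control females and Krt19 and Krt7 higher in LKO females. Of the endothelial list Stab2 was called higher in control females and Lyve1 lower in LKO females. Of 2 intestine and pancreas markers tested, Fabp2 and Cela1 were both called lower in control females, and Cela1 again in LKO females. No lymphocyte marker was called in edgeR, with 1 at an unadjusted p under 0.05 in controls and 0 in LKO, and DESeq2 called Cd4 lower in control females. The part of these markers in the sex differences of the carboxylesterases was not tested.

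Between LKO and control males, edgeR called 1 of 13805 genes, Cpt1a, and none of the members, so 0.00724% of genes were called. DESeq2 called 107 of 7374 genes (1.45%), among them Ces1g and Ces2c. The groups of these 2 members did not overlap, both higher in LKO, as was so for 0.674% of all genes tested. Nothing is read from these counts, since the members were chosen on this contrast. Values were higher in LKO for 7 members and lower for 3, with a median log2 difference of 0.17 against 0.01 over all genes.

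Ces1g was at 127, 137, 104, 108 and 105 CPM in control males and at 155 to 184 (median 165) in LKO males. All 6 LKO males lay above all controls, and the LKO values were the more tightly packed, with an SD of 9.68 against 14.9. The log2 difference was 0.51 (SE 0.09), a fold of 1.42, and leaving out any 1 liver kept it between 0.47 and 0.58. Ces2c was at 24.8 ± 4.12 CPM (SD, n = 5) in controls and 45.0 ± 10.6 (n = 6) in LKO, a log2 difference of 0.86 (SE 0.16). Its LKO males were spread from 32.4 to 57.7 CPM, with 3 livers above 50, LKO male 3 at 40.4 and 2 livers below 35.

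The other members differed less in males. Ces2e was at 239 ± 27.4 CPM in controls and 280 ± 16.1 in LKO (log2 difference 0.22, SE 0.09), with 5 of 6 LKO males above every control. Ces1d was at 384 ± 28.0 and 510 ± 154 (0.40, SE 0.18): 4 LKO males, at 443 to 755 CPM, were above every control and 1 was below them all. Without LKO male 4, the highest liver, the Ces1d difference was 0.26. Ces1b differed by 0.35 (SE 0.20), or 0.20 without LKO male 1. Ces3a differed by 0.12 (SE 0.18), with 0.33 without control male 4 and 0.05 without control male 3. Ces1c (-0.11, SE 0.20), Ces2a (-0.12, SE 0.23), Ces1e (-0.05, SE 0.11) and Ces1f (0.02, SE 0.08) differed by no more than 1 SE, and the sign of each of these 4 turned when a single control was left out. Without control male 4, Ces2a was at 0.14 and Ces1c at 0.06.

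No cell type marker was called in the same comparison in edgeR or in DESeq2, but values differed. Of the 10 hepatocyte markers 7 had lower values in LKO males (median log2 difference -0.24), and their summed level had a median of 63431 CPM against 74593 in control males. None was called in edgeR (4 at an unadjusted p under 0.05) or in DESeq2. Of the 10 macrophage markers 8 had higher values (median 0.17), again with none called in edgeR (1 at an unadjusted p under 0.05) or in DESeq2. Of the 10 stellate cell and fibroblast markers 6 had higher values, and in edgeR 1 was at an unadjusted p under 0.05, Acta2 (-0.68, SE 0.31). Of 9 cholangiocyte markers tested 6 had lower values, and 2 were at such a p, Krt19 (-0.91, SE 0.35) and Krt7 (-0.72, SE 0.32). The endothelial, lymphocyte, and intestine and pancreas lists had 0. The part of these markers in the male values of Ces1g and Ces2c was not tested.

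Between LKO and control females, edgeR called 194 of 13684 genes (1.42%) and no member. DESeq2 called 554 of 15235 (3.64%) and 1 member, Ces2a. No member had groups apart, against 1.59% of all genes tested. Values were lower in LKO for 8 members and higher for 2, with a median log2 difference of -0.12 against 0.01 over all genes. Again these counts only describe the contrast used for the choice.

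Ces2a showed the widest gap in females. It ranged from 171 to 285 CPM (median 239) in control females and from 80.5 to 198 (median 156) in LKO females, and 4 of 6 LKO livers lay below every control. The log2 difference was -0.60 (SE 0.18), and -0.47 without LKO female 6, the lowest liver. Ces1e ranged from 108 to 175 CPM in controls and from 87.8 to 130 in LKO, a log2 difference of -0.34 (SE 0.13), or -0.27 without LKO female 6.

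In females Ces1g was at 228 ± 29.4 CPM in controls and 207 ± 35.6 in LKO (n = 6 each), a log2 difference of -0.13 (SE 0.12), and of -0.04 without LKO female 6. Ces2c, with 81 to 279 deposited counts a library in LKO females, was at 9.75 ± 3.94 and 9.16 ± 2.82 CPM, a difference of -0.09 (SE 0.26) whose sign turned without control female 4. Ces1b (-0.24, SE 0.17), Ces1c (-0.17, SE 0.12), Ces2e (-0.10, SE 0.12), Ces1f (-0.01, SE 0.10), Ces3a (0.13, SE 0.17) and Ces1d (0.25, SE 0.26) made up the rest. Single livers weighed on these small differences. Without LKO female 6, Ces1c was at -0.11, Ces2e at -0.03, Ces1f at 0.05 and Ces1d at 0.42. Ces1b was at -0.06 without control female 6, and Ces2e at -0.16 without control female 5. Ces3a was at 0.00 without control female 2 and 0.24 without control female 4. For Ces1d the LKO females were widely spread, from 334 to 1283 CPM, and 2 of them exceeded every control. Without LKO female 5, the highest liver, the Ces1d difference was 0.12.

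In the same comparison the hepatocyte marker sum was lower, with a median of 84957 CPM in LKO females against 99773 in control females, and 9 of its 10 genes had lower values without any being called in edgeR (3 at an unadjusted p under 0.05) or in DESeq2. All 10 stellate cell and fibroblast markers had higher values, none called in edgeR (6 at an unadjusted p under 0.05) and 1, Col3a1, in DESeq2, and of the cholangiocyte list Spp1, which encodes osteopontin, rose by 0.66 (SE 0.12, adjusted p = 0.0135). All 8 lymphocyte markers tested had higher values (median 0.62), at low sums (medians of 15.2 CPM in controls and 16.5 in LKO). Of 10 macrophage markers 6 had higher values, and of 10 endothelial markers 8 had lower ones. No lymphocyte, macrophage or endothelial marker was called in edgeR or in DESeq2. Of 2 intestine and pancreas markers tested 1 was lower and 1, Fabp2, higher (DESeq2 0.54, adjusted p = 0.00786, not called in edgeR). The part of these markers in the female values of Ces2a and Ces1e was not tested.

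The genotype difference itself can be set side by side for the sexes. The difference of the 2 contrasts, female minus male, was -0.64 (SE 0.16) for Ces1g, -0.94 (SE 0.33) for Ces2c, -0.59 (SE 0.28) for Ces1b and -0.49 (SE 0.31) for Ces2a. The Ces2a value was -0.75 without control male 4. Of the members 9 had a negative value and Ces3a was at 0.01 (SE 0.26). In edgeR 0 of 14503 genes were called for this term (0%), with 1874 at an unadjusted p under 0.05. DESeq2 called 72 of 13538 (0.532%), of which Ces1g was the only member. The term is built from the contrasts on which the members were chosen, with Ces1g named for its shift, so nothing is read from that call. The female-against-male gap in Ces1g was thus 0.97 in controls and 0.32 in LKO on the log2 scale, and that in Ces2c -1.34 and -2.29.

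**Figure D4:**
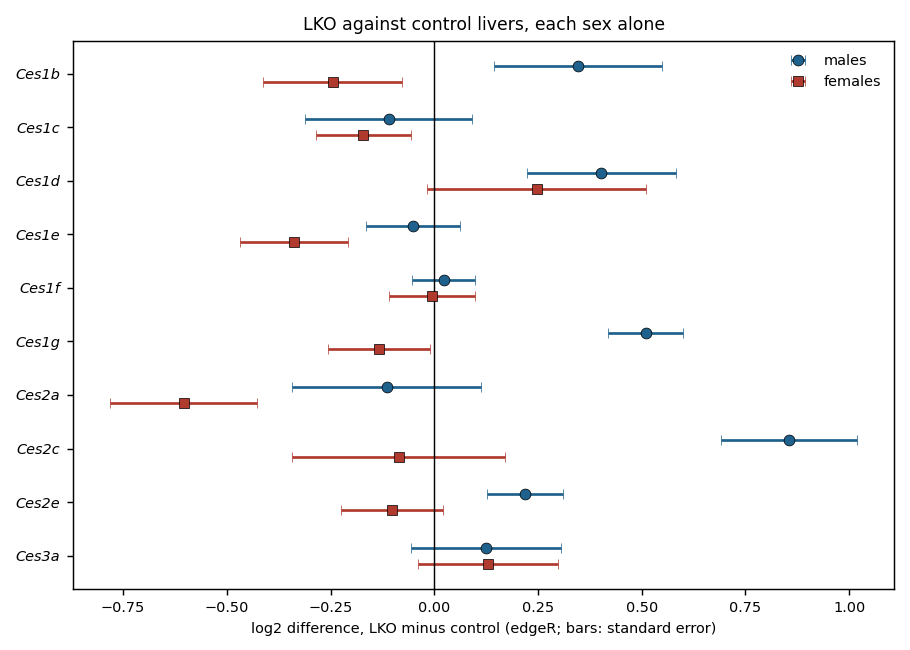
Points give the log2 difference, LKO minus control (horizontal axis), for each gene (vertical axis) in males (blue circles) and in females (red squares), with bars for the edgeR standard error. Ces2c (0.86) and Ces1g (0.51) lie farthest to the right in males, and Ces2a (-0.60) farthest to the left in females.

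Within groups the genes varied together only in part. After the mean of each group was removed from log2(CPM + 1), the 45 pairs of members had a median Pearson r of 0.33 over 23 livers, 36 pairs were above 0, 12 above 0.5 and 0 below -0.5. The highest values were Ces1c with Ces2a (0.78), Ces1e with Ces1f (0.76), Ces1b with Ces1c (0.72) and Ces1d with Ces1f (0.70). The lowest was Ces2e with Ces3a (-0.38). By Spearman's rho the pairs among Ces1b, Ces1c, Ces2a and Ces3a stood at 0.57 to 0.72. Pairs among Ces1d, Ces1e, Ces1f and Ces2e were less alike by rank, at 0.21 for Ces1d with Ces1e, 0.31 for Ces1d with Ces2e and 0.36 for Ces1f with Ces2e. LKO female 6 was the lowest of its group for all 4 of these genes. Ces1c and Ces2a lie in different blocks, whereas the near copies Ces1b and Ces1c may share reads. Each point is a liver, so pairs share library depth and scaling, and the values are given without a test.

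**Figure D5:**
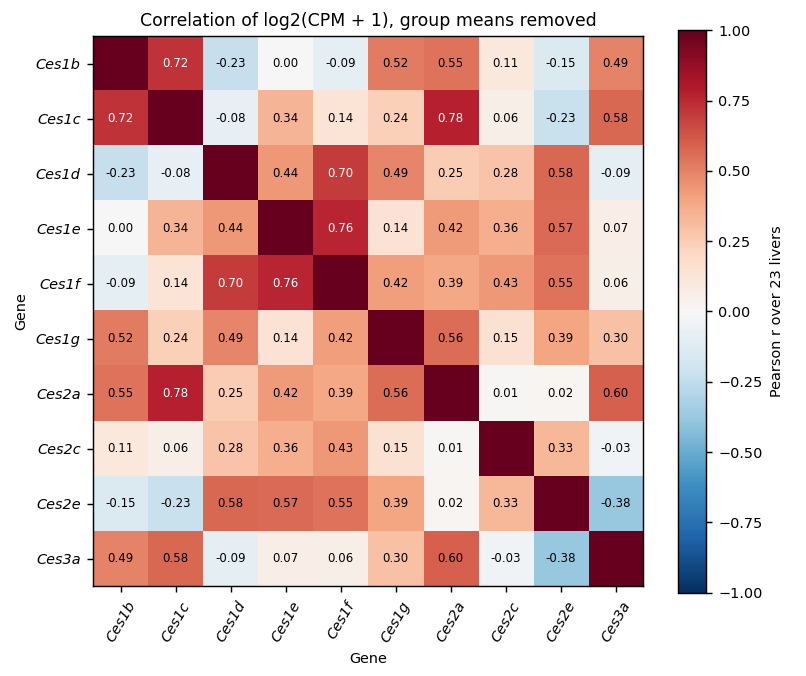
Cells give Pearson r (colour scale from -1 to 1) between each pair of the 10 genes over 23 livers, in log2(CPM + 1) with group means removed. One set of high values joins Ces1b, Ces1c, Ces2a and Ces3a (0.49 to 0.78), and another joins Ces1d, Ces1e, Ces1f and Ces2e (0.44 to 0.76, but 0.21 to 0.73 by Spearman's rho).

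Among 10612 genes compared in the same way, those most like Ces1g were Apbb2 (r = 0.77), Acsm5 (0.76), Ngef (0.76), Inmt (0.76) and Cyp2b13 (0.73). Cyp2b13 reached the limit on mean counts through the females. It had 52 or fewer counts in every control male library and 11 or fewer in every LKO male library, so its male deviations come from values near 0. Those most like Ces1c, the member with the highest mean level per length, were Pipox (0.95), Pon1 (0.94), Serpina1d (0.93), Cyp2c68 (0.93) and Acadsb (0.92). With Spearman correlation 3 of the 5 stayed for Ces1g and 2 of the 5 for Ces1c.

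Other carboxylesterases were mostly scarce in liver. Of a list of 9, 7 were in the tables and Ces1h and Ces5a were not analysed here. Ces2f was at 4 counts or fewer in every library and Ces1a at 11 or fewer, and Ces3b, the neighbour of Ces3a, was at 288 ± 179 CPM in control males and 203 ± 44.4 in control females. No gene of the list was called between LKO and control in either sex. In edgeR 5 were tested in males and 2 in females, with 1 at an unadjusted p under 0.05 (Ces3b in females, -0.53, SE 0.25). DESeq2 gave an adjusted p to only 2 of the list in males and 4 in females. The lowest p in males and in the genotype-by-sex term was that of Ces4a (-0.83, SE 0.45, and 1.47, SE 0.87). Between control females and males, of 4 tested, Ces4a fell by 2.91 on the log2 scale (SE 0.59, adjusted p = 0.00538) from counts of 16 to 61 in males, and Ces2g rose by 0.35 (SE 0.09, adjusted p = 0.0132). In LKO livers Ces2h fell by 0.80 (SE 0.24, adjusted p = 0.0408) from 12 to 20 counts in males. DESeq2 did not call Ces2h there, and called Ces1a (-2.03) and Ces2b (-3.88) lower in LKO females, genes at 0 counts in 2 and 3 of the 6 LKO female libraries and named after their values were seen. In controls it called Ces2b lower besides Ces4a and Ces2g.

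A list of 22 other ester and neutral lipid hydrolases of liver gave no call between LKO and control among the 21 tested in either sex (edgeR, with 3 in males and 9 in females at an unadjusted p under 0.05). DESeq2 called none in males and 4 in females, which were Abhd2, Lipc, Lipe and Pnpla3, the latter 3 named after their values were seen. The lowest p belonged to Lypla2, an acyl-protein thioesterase, in males (-0.28, SE 0.09) and to Abhd2 in females (0.71, SE 0.18, adjusted p = 0.0657), and for the genotype-by-sex term to Pnpla2, the adipose triglyceride lipase (0.32, SE 0.14). Between control females and males 4 were higher and 5 lower. Pnpla7, a lysophospholipase, fell by 0.85 (SE 0.08, adjusted p = 1.3e-05), Bche, the plasma butyrylcholinesterase, rose by 0.64 (SE 0.13, adjusted p = 0.00595) and Abhd5, the co-activator of Pnpla2, fell by 0.57 (SE 0.12, adjusted p = 0.00684). Esd (-0.32), Pon2 (-0.32) and Pon1 (0.77) also passed. In LKO livers 4 were higher and 3 lower, including Pnpla7 (-0.79), Abhd2 (1.19), Bche (0.48), Lipc (0.52), Pon1 (0.53) and Pon2 (-0.24).

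Nuclear receptors and transcription factors known to act on carboxylesterase or drug metabolism genes gave no call between LKO and control (edgeR, 15 tested in males and 16 in females, with 1 and 0 at an unadjusted p under 0.05). The lowest p was that of Cebpa in males (-0.28, SE 0.09, which DESeq2 called as its only gene of this list in either sex), Stat5b in females (-0.21, SE 0.10) and Ahr for the genotype-by-sex term (-0.67, SE 0.30). Between control females and males 6 of 16 were called, all higher in females. They were Nr1i3, the receptor CAR (1.30, SE 0.13, adjusted p = 3.78e-05), Nr1i2, the receptor PXR (0.37, SE 0.10, adjusted p = 0.0186), the female-enriched repressor Cux2 (7.47, SE 0.54), Ahr (0.79), Nr3c1 (0.41) and Hnf4a (0.43). In LKO livers Cux2 (7.13), Nr1i3 (0.97), Nr3c1 (0.29) and Nr1i2 (0.33) were called, all higher in females. Cux2 had 8 or fewer counts in every control male library and 11 or fewer in every LKO male library, so the size of its differences rests on male values near 0.

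Of 17 known targets of CAR and PXR, none was called between LKO and control in edgeR, with 3 of 15 tested in males and 7 of 17 in females at an unadjusted p under 0.05, and none in DESeq2. Values were higher in LKO for 12 of 15 in males (median 0.32, against 0.01 over all genes) and 11 of 17 in females (median 0.17). The lowest p was that of Abcc2, a bile canalicular exporter, in males (0.32, SE 0.10) and for the genotype-by-sex term (-0.55, SE 0.12, called in DESeq2 at an adjusted p of 0.0138), and of Cyp3a13 in females (0.38, SE 0.12). Between control females and males 9 of 16 were called higher and 1 lower. The lowest p values were those of Cyp2b13 (8.21, SE 0.63), Slco1a4 (2.35, SE 0.22), Cyp2b9 (4.33, SE 0.52), Cyp2b10 (3.68, SE 0.54), Ugt1a1 (1.20, SE 0.18) and Por (1.15, SE 0.19). In LKO livers 10 of 17 were called higher and 3 lower, led by Cyp2b13 (9.65), Cyp2b9 (4.99), Cyp3a13 (0.93), Slco1a4 (1.89), Sult2a1 (9.91) and Por (1.17). Male counts behind the largest of these differences were small, with 11 or fewer Cyp2b13 counts and 2 or fewer Sult2a1 counts in every LKO male library.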

How the data were processed

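Per the labels' protocols, total RNA from livers was purified on RNeasy columns, polyadenylated RNA was captured on poly-T beads and libraries were made with random hexamers and dUTP. HISAT2 2.0.5 and the mouse build mm39 are named in the submitters' processing notes. The counter, the annotation release and whether the strand was used in counting are not given in the sources used here. The authors deposited raw counts per gene for each sample, a normalized signal that is the count over a size factor, FPKM values on the table's gene lengths, log2 fold changes, and p-values with adjusted p-values, in a table per sex. The deposited counts were the basis of every main value.

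The 10 members and all gene lists were chosen with earlier results of these data known. Replicates are separate mice by title, and where samples came from separate litters is not stated, so p-values measure the spread between these samples. Genes were filtered with filterByExpr, scaled by TMM factors and tested with edgeR 4.0.16 (quasi-likelihood, Benjamini-Hochberg over all genes tested, called at adjusted p under 0.05) in R 4.3.3. Genotype was compared within each sex, and sex within each genotype over the genes in both tables. SE is the log2 difference divided by the square root of its F. CPM values use 1 set of TMM factors over 23 libraries. Alternatives used DESeq2 1.42.0 and limma 3.58.1 (on log2 of the deposited FPKM plus 1 or 0.1), other scalings and filters, a replicate block, all 23 libraries in 1 fit, and leaving out each library. The deposited normalized signal, log2 fold changes and p-values of the authors were not used for a result. No sample column was left unmapped (0). The scripts were tested on simulated counts. The upstream windows come from RefSeq on GRCm38.p6 and the coding sequences from GENCODE M21 on GRCm38, aligned with Biopython 1.88, and no coordinates were converted. All 10 members were named, and genes of the lists were named if called in a comparison (at most 6 a list by lowest p) or if they had the lowest p of the list. Depth was 14224665 to 19626662 counts a library, and the lowest member, Ces2c in females, had 81 to 279 counts.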

Additional observations from a re-analysis of the deposited data

Results flagged for a closer look

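In 3 of 40 combinations of gene and group the most extreme liver lay farther from the nearest other liver than Dixon's limit allows, and chance gives about 1 in 20. LKO female 6 was apart on the low side for Ces1e (87.8 CPM) and Ces1g (140.1 CPM). It was the lowest of its group for 8 of the 10 members, and its hepatocyte marker sum, 66597 CPM, was the lowest among LKO females. The next lowest sum, 69274 CPM, was that of LKO female 3, which was the highest of its group for 4 members. Control male 4 was apart on the high side for Ces3a (2599 CPM), and its hepatocyte marker sum, 92779 CPM, was the highest among control males. Control male 6 had the next highest sum, 90683 CPM, with Ces3a at 1625 CPM. The part of hepatocyte content in these values was not tested.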

How the results depend on the processing

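No member difference past the threshold changed direction under any alternative run, and none lost its call. In males, the 1 gene called between LKO and control was 2 with library size alone, without a filter and with the replicate block, 3 at a minimum of 10 counts in every sample, 107 with DESeq2 and 5 with all 23 libraries in the fit, and 1 to 2 when a liver was left out (2 without control male 1). In females, 194 genes were called, 554 with DESeq2, 334 with the replicate block, 94 with all 23 libraries, and 87 to 233 when a liver was left out, falling by more than 1.5 times without control female 1, 5 or 6 or LKO female 2, 3 or 4. For the genotype-by-sex term 0 became 72 with DESeq2 and 0 to 17 when a liver was left out (17 without control male 4). Between control females and males 2466 genes became 999 with the replicate block, which also drops control female 5 for want of a male of that number (1952 without that liver alone), and 1766 to 2947 when a liver was left out; in LKO livers 1708 became 1267 to 1893. Members called between LKO and control numbered 2 with DESeq2 and 1 with the replicate block in males (0 in edgeR), 1 with DESeq2 in females and 1 for the genotype-by-sex term, and in none of the fits that left out a liver. Between the sexes 8 members were called with DESeq2 in LKO livers (5 in edgeR, 5 to 7 when a liver was left out) and 6 to 8 in controls when a liver was left out. The cause of these changes was not tested. The labels share replicate numbers between groups. Pairing was kept out of the main fits by a chosen cut, that every pair correlate above 0.1, which no comparison met. Deviations of same-numbered livers correlated above 0.1 in 1 of 5 pairs of males, 5 of 6 of females, 1 of 5 of controls and 1 of 6 of LKO livers. Of these pairs 1, 4, 1 and 1 correlated best with their own number. For females the cut does not settle whether the numbers mark pairs. The replicate block left 6 members called in each sex comparison, adding Ces1d in LKO livers, and in males, where it also drops LKO male 5, it called Ces2c between LKO and control, which leaving out that liver alone did not. Shares on the deposited FPKM equalled those in CPM per kb, which was fixed in advance. Both scales divide the same counts by the same gene lengths, and the factor of a library cancels in a share. With group means kept, 0 of the 5 genes most like Ces1g and 1 of the 5 most like Ces1c stayed. Ces2c had the fewest counts of the members, 81 to 279 a library in females.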
